A study of Rattus norvegicus with 6 samples.

Results

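Integrins, cadherins and protocadherins are the 3 large families of adhesion receptors examined here, in RK3E cells transformed by GLI1. The members were the genes whose symbols begin as these families' symbols do, among probe sets annotated to exactly 1 symbol, without the cadherins Cdh1, Cdh2, Cdh11 and Cdh16, and with the probe set of highest mean log2 signal standing for each gene. The rule gave 54 genes of 14217 named by single-symbol probe sets: 22 integrin subunits, 3 proteins named for binding an integrin tail, 12 cadherins and 17 protocadherins. RK3E cells come from rat kidney epithelium and carry an immortalising adenovirus oncogene, and GLI1 is a zinc finger transcription factor through which Hedgehog signals act. The GLI1-transformed group held 4 arrays, 1 with no clone named, 1 of clone I and 2 of clone II, grown from foci that formed after transfection with a GLI1 construct. These were set against 2 arrays of the parental line. All cells grew in medium with serum, and nothing in the labels says that the parental cells were transfected with an empty construct. The labels do not name the promoter that drove GLI1.

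Integrins are pairs of 1 alpha and 1 beta subunit that bind matrix proteins outside the cell and, through talin and kindlin, the actin cytoskeleton inside it. The alpha subunit sets much of the ligand choice, and the beta 1 subunit pairs with most alpha subunits of epithelial and mesenchymal cells. Cadherins bind the same or a like cadherin on the next cell, with catenins below the membrane. Protocadherins share the outer cadherin repeats without the catenin-binding tail, and the clustered ones are made from long rows of variable exons, each with a promoter of its own.

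Gli1 lay between log2 signals of 11.71 and 13.15 on the 4 GLI1 arrays, against 5.17 and 6.50 on the parental arrays. Of 11 kidney epithelial markers measured, 3 (Krt8, Epcam and Aqp1) lay above the signal filter and the other 8, Cdh1, Cdh16, Krt18 and Pax8 among them, did not. The summed signal of the 11 ran from 2425 to 9841 on the GLI1 arrays, against 3308 to 3707 on the parental arrays. The ratio of GAPDH signals at the 3' and 5' ends, which grows as RNA degrades, was 7.52 on clone II replicate 1 and at most 2.09 on the other GLI1 arrays, against 3.66 and 1.43 on parental replicates 1 and 2. Fewer cells of a type and less RNA per cell cannot be told apart in such samples.

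In GLI1-transformed cells the collagen-binding integrin alpha subunits Itga1 and Itga11 and the laminin-binding Itga3 fell. The beta 1 and beta 5 subunits, P-cadherin and several protocadherins fell too, and among tested members only Itga6 and Itgb3bp rose. The signal filter kept probe sets whose log2 signal, averaged over all 6 arrays, passed the 40th percentile (8.33), and 28 of the 54 members passed it. By limma over all 18625 tested probe sets, at a Benjamini-Hochberg adjusted p under 0.05, 11 of the 28 members fell, where 7.25% of all tested probe sets fell. Another 2 members rose, where 5.84% of all rose, and 15 did not pass. "Rose" and "fell" below mean this adjusted p. The median log2 difference, GLI1-transformed minus parental, was -0.56 over the 28 members and 0.005 over all tested probe sets. All 4 GLI1 arrays lay below both parental arrays for 13 tested members, where 20.2% of all probe sets did so, and above both for 5, where 19% did.

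**Figure D1:**
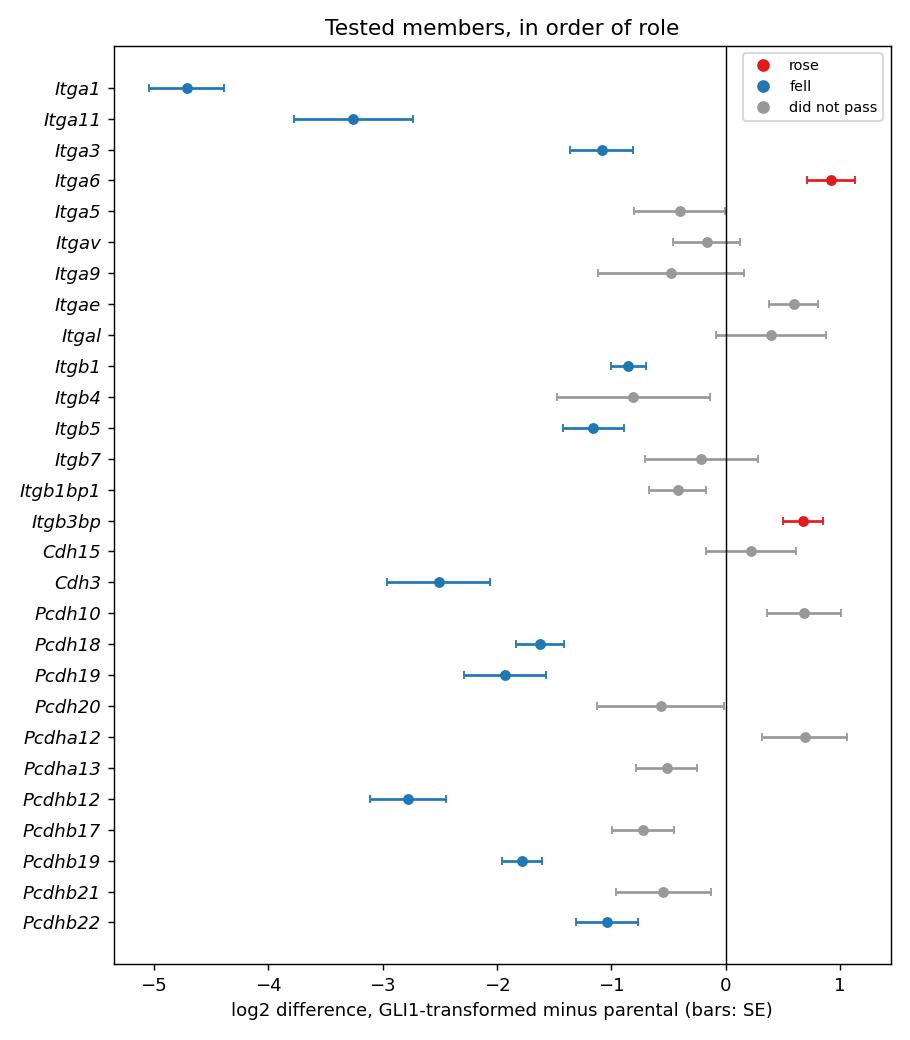
Log2 difference, GLI1-transformed minus parental, of each of the 28 tested members in order of role (n = 4 and 2 arrays; bars are SEs from limma). Itga1 lies furthest left at -4.71, and Itga6 at 0.92 and Itgb3bp at 0.68 are the members that rose.

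Among the alpha subunits, the collagen receptors Itga1 and Itga11 fell. Itga1 encodes the alpha subunit of the collagen IV and collagen I receptor alpha 1 beta 1. It gave log2 signals of 10.55 with no clone named, 9.73 in clone I, and 9.35 and 9.50 in clone II, against 14.56 and 14.42 in parental cells. GLI1 arrays averaged 9.78 ± 0.54 (SD, n = 4) and parental arrays 14.49 ± 0.10 (SD, n = 2), a 26.2-fold fall (log2 -4.71, SE 0.33, adjusted p = 9.06e-05, limma). Every GLI1 array lay far below both parental arrays. Itga11, the alpha subunit of a fibrillar collagen receptor of mesenchymal cells, gave log2 signals of 7.90 with no clone named, 6.52 in clone I, and 8.09 and 7.32 in clone II, against 11.10 and 10.32 in parental cells. It fell 9.54-fold (log2 -3.25, SE 0.52, adjusted p = 0.00479), or 8.13-fold with 32 added to each signal. Itga11 passed the filter only through the parental arrays, so it had to differ, and it is 1 of 3 tested members with only the GLI1 mean below 8.33. Without these 3, 10 of 25 members fell. Fitted with no filter, Itga11 gave an adjusted p of 0.00853. The GLI1 arrays were dim and spread over more than 1 log2 unit, and all of them were below the parental arrays. The call of Itga11 was lost without parental replicate 1 (adjusted p = 0.0916), and that of Itga1 was kept with any 1 array left out. Of 8 fibroblast markers 5 lay above the filter, and their summed signal ran from 7559 to 16170 on the GLI1 arrays, against 118700 to 132600 on the parental arrays. The collagens Col1a1 and Col3a1 and the matrix protein Ogn fell. Pdgfra and Fbln1 did not pass, with log2 differences from -0.06 to 0.13, and none was listed at 0. Most of the parental sum came from Col1a1 (log2 15.2 and 15.1) and Col3a1 (16.1 and 15.9). Over all 8 markers the median log2 difference was -0.80, with 5 below 0. Fitted with no filter, 2 of the 8 fell, where 4.15% of all probe sets fell. The part of these markers in the values of Itga1 and Itga11 was not tested.

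The laminin receptors went apart. Itga3, whose product pairs with beta 1 to bind laminins of basement membranes, had log2 signals of 11.87 with no clone named, 11.52 in clone I, and 11.14 and 12.10 in clone II, against 12.61 and 12.88 in parental cells. It fell 2.12-fold (log2 -1.08, SE 0.28, adjusted p = 0.0339), and its highest GLI1 array stood close under the lower parental one. Itga6, which pairs with beta 1 or with the beta 4 subunit of hemidesmosomes, reached 13.90 with no clone named, 13.51 in clone I, and 13.20 and 13.42 in clone II, against 12.55 and 12.62 in parental cells. It rose 1.89-fold (log2 0.92, SE 0.21, adjusted p = 0.0228) with no overlap between the groups. Its other 3 tested probe sets did not pass, and the mean of all 4 gave 0.39 (adjusted p = 0.347). Itga3 lost its call without clone I (adjusted p = 0.0823), parental replicate 1 (0.151) or parental replicate 2 (0.213), and Itga6 without the same arrays (0.058, 0.173 and 0.12). Itga7, a laminin receptor of muscle, was below the filter on every one of its 3 probe sets, which disagreed in sign. Of these, 1 gave 8.16 with no clone named, 5.62 in clone I, and 4.82 and 4.49 in clone II, against 9.89 and 9.75 in parental cells. The probe set of highest mean gave a log2 difference of -0.88.

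Subunits that bind the RGD sequence of fibronectin and vitronectin showed no called change among the alpha chains. Itga5, the alpha subunit of the main fibronectin receptor, had 9.54 with no clone named, 9.05 in clone I, and 9.15 and 9.24 in clone II, against 9.01 and 10.29 in parental cells. The log2 difference was -0.40 (SE 0.40, adjusted p = 0.552), with overlapping groups and parental arrays more than 1 log2 unit apart. Itgav, the shared partner of beta 3, beta 5, beta 6 and beta 8, had 12.87, 12.65, 11.92 and 12.95 on the GLI1 arrays in the same order, against 12.62 and 12.91 on the parental arrays. Its log2 difference was -0.17 (SE 0.29, adjusted p = 0.755), and its other probe sets gave -0.02 (0.968) and 0.03 (0.954). Neither Itga8 nor Itga2b was bright enough to be tested. Itga8 ran from 6.06 to 8.06 on the GLI1 arrays, against 8.96 and 8.65 on the parental arrays, and Itga2b from 8.73 to 9.41, against 8.15 and 5.52. The summed signal of 5 platelet markers, which hold Itga2b and of which 0 lay above the filter, ran from 677 to 1051 on the GLI1 arrays, against 298 to 485.1 on the parental arrays. For each of the other 4 the groups overlapped.

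Most of the other alpha subunits are known from leukocytes, except Itga9, which binds tenascin and osteopontin in many tissues. Itga9 gave a log2 difference of -0.48 (adjusted p = 0.674). Itgae, the partner of beta 7 in intraepithelial lymphocytes, gave 0.59 (0.107), and Itgal, of the leukocyte receptor LFA-1, gave 0.40 (0.638). None of these 3 passed, although for Itgae all GLI1 arrays lay above both parental arrays. Itgax, of a complement receptor of myeloid cells, lay below the filter, with 7.28 with no clone named, 3.85 in clone I, and 5.54 and 5.40 in clone II, against 10.13 and 9.29 in parental cells. Its groups did not overlap, with a log2 difference of -4.19, or -3.37 with 32 added to each signal. Itgad and Itgam were dim and overlapping. Of 11 leukocyte markers, 3 lay above the filter, and their summed signal ran from 1994 to 3539 on the GLI1 arrays, against 3462 to 3924 on the parental arrays. Ptprc, which marks all leukocytes, was dim, at log2 3.82 to 6.35 on the GLI1 arrays, against 4.97 and 4.22 on the parental arrays, and no marker was listed at 0. Of the 3 tested, the monocyte marker Cd14 fell (log2 -1.82, adjusted p = 0.0301) and 2 did not pass, and Cd14 lost its call without clone I (0.0691), clone II replicate 2 (0.0552), parental replicate 1 (0.234) or 2 (0.12). The 2 that did not pass gave log2 differences of -0.21 and 1.08, the latter with every GLI1 array above both parental arrays. Of the 11 differences, 6 lay below 0. The part of these markers in the values of Itgax was not tested.

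Among the beta subunits, the 2 that fell were Itgb1 and Itgb5. Itgb1, a partner of Itga1, Itga11, Itga3, Itga6 and Itga5 among others, had log2 signals of 15.01 with no clone named, 14.71 in clone I, and 14.91 and 14.86 in clone II, against 15.67 and 15.79 in parental cells. The fall was 1.80-fold (log2 -0.85, SE 0.15, adjusted p = 0.0081), with narrow and separate groups. Its second probe set gave a larger fall of 2.76-fold (log2 -1.46, SE 0.20, adjusted p = 0.00212), which was kept with any 1 array left out. The call of the first did not survive leaving out parental replicate 1 (adjusted p = 0.0696) or 2 (0.0829). Itgb5, which with alpha v binds vitronectin, had 12.49 with no clone named, 12.37 in clone I, and 11.94 and 11.74 in clone II, against 13.57 and 13.01 in parental cells. It fell 2.23-fold (log2 -1.16, SE 0.26, adjusted p = 0.0227), and all GLI1 arrays were below both parental arrays. A second probe set also fell (log2 -1.64, SE 0.37, adjusted p = 0.0207), while the third, below the filter, lay higher in GLI1 cells by 0.94. The second lost its call without parental replicate 1 (adjusted p = 0.194) or 2 (0.0934). The call of the first probe set did not survive leaving out parental replicate 1 (adjusted p = 0.232) or 2 (0.0608).

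Itgb3, the beta subunit of the vitronectin receptor alpha v beta 3, had a mean below the filter although both parental arrays stood above its level. Its log2 signals were 7.23 with no clone named, 5.36 in clone I, and 4.24 and 7.16 in clone II, against 10.29 and 9.62 in parental cells. The log2 difference was -3.96, or -3.30 with 32 added to each signal, with no overlap between the groups and every GLI1 array under the filter level. Itgb4, the hemidesmosome subunit, had 9.57 with no clone named, 6.82 in clone I, and 8.38 and 8.22 in clone II, against 8.81 and 9.31 in parental cells. It gave -0.81 (SE 0.67, adjusted p = 0.471), with GLI1 arrays spread over more than 2 log2 units. Itgb7 gave -0.21 (adjusted p = 0.82). Itgb2 and Itgb6 were below the filter with overlapping groups.

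The 3 genes named for integrin binding are not adhesion receptors. Itgb3bp encodes a kinetochore protein that was found through its binding to the beta 3 tail. It had 13.49 with no clone named, 13.78 in clone I, and 13.86 and 13.73 in clone II, against 12.95 and 13.13 in parental cells, and rose 1.60-fold (log2 0.68, SE 0.17, adjusted p = 0.0344). The groups did not overlap, but its call was lost without any 1 array other than the one with no clone named (adjusted p = 0.065 to 0.254). Its second probe set gave 0.41 (adjusted p = 0.141). Itgb1bp1, whose product holds beta 1 integrins inactive, gave -0.42 (0.305), and Itgb1bp2, of muscle, lay below the filter.

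**Figure D2:**
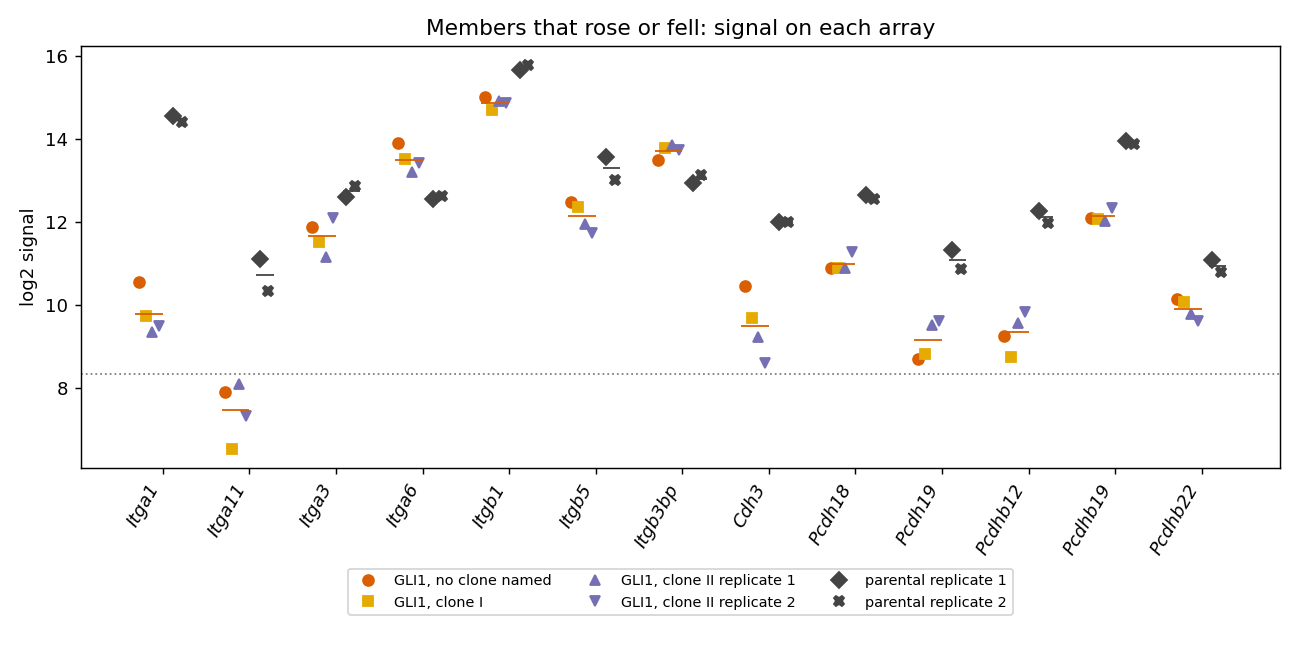
Log2 signal of the 13 members that rose or fell, by array (4 GLI1 arrays left, 2 parental arrays right of each position; short lines are group means; the dotted line at 8.33 is the filter, applied to the mean over the 6 arrays). The GLI1 arrays lie below the parental arrays for 11 members and above them for Itga6 and Itgb3bp. These members were picked by their calls on the same arrays. Over all tested probe sets, 20.2% lie below both parental arrays and 19% above both.

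Only 2 of the 12 cadherins passed the filter. Cdh3, or P-cadherin, a classical cadherin of basal epithelial cells, had 10.47 with no clone named, 9.68 in clone I, and 9.22 and 8.60 in clone II, against 12.00 and 12.01 in parental cells. It fell 5.69-fold (log2 -2.51, SE 0.45, adjusted p = 0.00855). The GLI1 arrays spread over nearly 2 log2 units, all below the parental pair. Its call did not survive leaving out parental replicate 1 (adjusted p = 0.0897) or 2 (0.0758). Cdh15, or M-cadherin, known from muscle, gave 0.22 (adjusted p = 0.76). The classical cadherins that the rule leaves out gave -1.97 for Cdh2 (adjusted p = 0.00168) and 0.25 for Cdh11 (0.675), with Cdh1 and Cdh16 below the filter.

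All 7 type II cadherins and the 3 atypical ones were below the filter. Cdh10, a type II cadherin of the nervous system, had 9.77 with no clone named, 9.45 in clone I, and 9.23 and 9.16 in clone II, against 7.70 and 3.54 in parental cells. The GLI1 arrays were close together and above both parental arrays, which differed from each other by more than 4 log2 units. Cdh7 also lay higher on every GLI1 array, from 7.30 to 8.12, against 5.98 and 6.97. Cdh13, or T-cadherin, which is held in the membrane by a lipid anchor, had 5.19 with no clone named, 5.55 in clone I, and 5.35 and 5.48 in clone II, against 5.61 and 8.35 in parental cells. Its 3 dim probe sets disagreed in sign (-1.59, 1.44 and -0.98). Cdh20 lay lower on every GLI1 array, from 3.52 to 3.98, against 4.13 and 6.90. For Cdh6, Cdh8, Cdh12, Cdh17, Cdh22 and Cdh23 the groups overlapped.

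Among the delta protocadherins, Pcdh18 and Pcdh19 fell. Pcdh18, a receptor of the delta 2 class, had 10.88 with no clone named, 10.88 in clone I, and 10.89 and 11.27 in clone II, against 12.65 and 12.55 in parental cells. It fell 3.08-fold (log2 -1.62, SE 0.21, adjusted p = 0.00174), with groups more than 1 log2 unit apart and a call that was kept with any 1 array left out. Pcdh19, of the same class and mutated in a human epilepsy, had 8.69 with no clone named, 8.80 in clone I, and 9.52 and 9.61 in clone II, against 11.31 and 10.86 in parental cells. It fell 3.81-fold (log2 -1.93, SE 0.36, adjusted p = 0.00953), and this call did not survive leaving out parental replicate 1 (adjusted p = 0.131) or 2 (0.0567). Pcdh10, also of that class, did not move with them, at 0.68 (adjusted p = 0.206). Pcdh20 gave -0.57 (0.549). Pcdh8, Pcdh9, Pcdh15 and Pcdh17 were below the filter. A second probe set of Pcdh9 gave 5.46 with no clone named, 6.63 in clone I, and 3.98 and 3.54 in clone II, against 9.53 and 8.89 in parental cells. Its first probe set had overlapping groups and a log2 difference of -1.69. Of 7 neural markers 4 lay above the filter, with a summed signal of 3070 to 6435 on the GLI1 arrays, against 7096 to 7314 on the parental arrays. Map2 and Nes fell, Tubb3 and Rbfox3 did not pass, and none was listed at 0. Of the 2 that did not pass, 1 lay lower on average in GLI1-transformed cells (log2 -0.965) and 1 higher (2.52). Fitted with no filter, 1 of the 7 fell, where 4.15% of all probe sets fell. The part of these markers in the protocadherin values was not tested.

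The clustered protocadherins were represented by 7 beta and 2 alpha genes. Of the 5 beta genes tested, Pcdhb12, Pcdhb19 and Pcdhb22 fell and Pcdhb17 and Pcdhb21 did not pass. Over all tested probe sets, 7.25% fell. The beta genes encode receptors of like sequence, so that a probe set can take up signal from a neighbour. Pcdhb12 had 9.24 with no clone named, 8.74 in clone I, and 9.57 and 9.83 in clone II, against 12.27 and 11.98 in parental cells, a 6.86-fold fall (log2 -2.78, SE 0.33, adjusted p = 0.0012). Pcdhb19 had 12.10 with no clone named, 12.07 in clone I, and 12.02 and 12.34 in clone II, against 13.96 and 13.87 in parental cells, a 3.44-fold fall (log2 -1.78, SE 0.17, adjusted p = 0.000527). Both were separated by more than 1 log2 unit between the groups and kept their calls with any 1 array left out. Pcdhb22 had 10.15 with no clone named, 10.08 in clone I, and 9.77 and 9.61 in clone II, against 11.09 and 10.79 in parental cells. Its fall was smaller, 2.05-fold (log2 -1.04, SE 0.27, adjusted p = 0.0358), and its call was lost without any 1 array other than the one with no clone named (adjusted p = 0.0619 to 0.27) and with each array centred on its median (0.0581). Pcdhb17 gave -0.73 (adjusted p = 0.115) with every GLI1 array below both parental arrays, and Pcdhb21 gave -0.55 (0.431) with overlap.

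The largest differences among the beta genes belonged to a pair that the filter left out. Pcdhb9 had log2 signals of 6.22 with no clone named, 3.55 in clone I, and 3.41 and 4.42 in clone II, against 11.98 and 11.82 in parental cells. Its log2 difference was -7.50, and with 32 added to each signal before the log the ratio was 67.6-fold. Pcdhb6 had 2.87 with no clone named, 5.38 in clone I, and 5.04 and 7.72 in clone II, against 10.81 and 10.49 in parental cells. Its log2 difference was -5.40, and 20.0-fold with 32 added. The parental arrays of both genes stood well above the filter level and agreed closely, while the GLI1 arrays lay in the dim range where MAS5 signals scatter. In the order of the beta cluster on chromosome 18 (RefSeq, GRCr8), Pcdhb6 and Pcdhb9 are the sixth and ninth of 22 named beta genes, and Pcdhb12 is the next measured member after them.

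**Figure D3:**
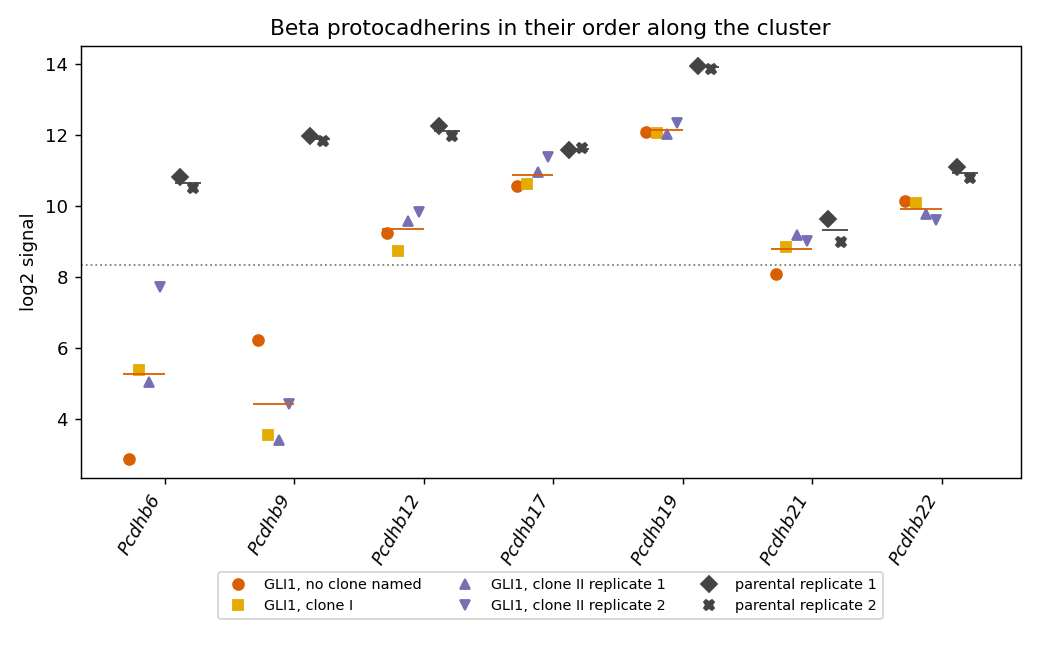
Log2 signal of the 7 measured beta protocadherins by array, in their order along the cluster (GLI1 arrays left, parental arrays right; short lines are group means; the dotted line is the filter, applied to the mean over the 6 arrays). All GLI1 arrays lie below both parental arrays for every gene except Pcdhb21, with Pcdhb9 furthest apart. Over all probe sets with no filter, 16.6% lie so.

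Promoter windows from RefSeq (250 bases before to 50 after each annotated start, build GRCr8) were found for 39 of the 54 members, among them 5 beta genes. Stretches of these 5 windows are shown because the genes belong to 1 cluster and share a promoter word, printed in capitals. Each is on the plus strand, 5′ to 3′, at chr18:29320141-29320214, chr18:29379218-29379310, chr18:29413618-29413710, chr18:29478734-29478826 and chr18:29492119-29492211 in the order given.
Pcdhb6: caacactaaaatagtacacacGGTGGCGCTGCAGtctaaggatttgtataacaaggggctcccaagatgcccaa
Pcdhb9: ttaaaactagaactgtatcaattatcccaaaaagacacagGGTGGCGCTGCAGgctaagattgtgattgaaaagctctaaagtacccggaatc
Pcdhb12: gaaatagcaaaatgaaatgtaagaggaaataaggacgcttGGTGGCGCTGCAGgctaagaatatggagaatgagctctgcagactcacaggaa
Pcdhb19: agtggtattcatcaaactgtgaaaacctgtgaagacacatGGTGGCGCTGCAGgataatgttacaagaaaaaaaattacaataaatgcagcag
Pcdhb21: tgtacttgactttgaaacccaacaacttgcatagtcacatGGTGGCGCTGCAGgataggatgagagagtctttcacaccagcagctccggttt

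The word GGTGGCGCTGCAG is the longest that all 5 windows share, and it was picked from these windows. It begins 229 bases before the annotated start of Pcdhb6, 52 before that of Pcdhb9, 98 before that of Pcdhb12, 74 before that of Pcdhb19 and 60 before that of Pcdhb21. On either strand it occurred in 13 of 33365 distinct promoter windows of the same length (0.039%), of which 12 belong to beta protocadherins and 1 to Dnajb2. The windows with the word belong to members that fell (Pcdhb12 and Pcdhb19), to one that did not pass (Pcdhb21) and to the untested Pcdhb6 and Pcdhb9, and the word was not looked for at Pcdhb17 or Pcdhb22. The core of the site bound by GLI factors, searched as ACCACCC and its complement GGGTGGT, was found in 2 of the 39 member windows, against 4.44% of all windows. These were Pcdh10, with the match 76 bases before the start, and Itgb1, with the match 15 bases after it. A match is a description of letters and shows no binding.

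The alpha genes Pcdha13 (log2 -0.52, adjusted p = 0.244) and Pcdha12 (0.69, 0.261) did not pass. Another 4 probe sets carry several clustered symbols and are no members, since transcripts of the alpha cluster, and of the gamma cluster, end in shared exons. Of 2 such probe sets for the alpha cluster, 1 fell (log2 -0.72, SE 0.20, adjusted p = 0.0459) and 1 did not pass (-0.55, 0.181). That call was lost without any 1 array (adjusted p = 0.0564 to 0.256) other than clone II replicate 2. Of 2 for the gamma cluster, 1 fell (-0.73, SE 0.17, adjusted p = 0.0227) and 1 did not pass (-1.28, 0.134). Its call was lost without clone I (adjusted p = 0.062), parental replicate 1 (0.171) or parental replicate 2 (0.127). All 4 differences were below 0.

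The filter acts on the mean over 6 arrays, so a gene that is bright in parental cells alone can be left out. Fitted over all 31042 probe sets with no filter, 14 of the 54 members fell, where 4.15% of all probe sets fell, and 3 rose, where 3.1% rose. Those added were Pcdhb9 (adjusted p = 0.0014), Pcdhb6 (0.0215), Itgax (0.0278) and Itgb3 (0.0325), which fell, and Cdh10 (0.0445), which rose, while Pcdhb22 was lost (0.0536). The second probe sets of Pcdh9 (adjusted p = 0.0295) and Itga7 (0.042) also passed there. In leave-one-out fits chosen after these values were seen, Pcdhb9 kept its call without any 1 array (adjusted p = 0.000508 to 0.0454). Without parental replicate 1 or 2, the calls were lost for Pcdhb6 (adjusted p = 0.201 and 0.144), Itgb3 (0.273 and 0.154) and Itgax (0.257 and 0.134). The same held for the second probe sets of Pcdh9 (0.247 and 0.146) and Itga7 (0.272 and 0.211). Itgb3 also lost it without clone I (0.0724), Itgax without clone II replicate 2 (0.0531) and the Pcdh9 probe set without clone II replicate 1 (0.0539). The Itga7 probe set lost it without clone I (0.0868) or clone II replicate 1 (0.0731) or 2 (0.0717). Cdh10 lost its call without any 1 array (adjusted p = 0.0757 to 0.148) other than parental replicate 1 (0.00698), and its log2 difference of 3.79 became 5.87 without that array and 1.71 without parental replicate 2. With 32 added to each signal it was 2.80.

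**Figure D4:**
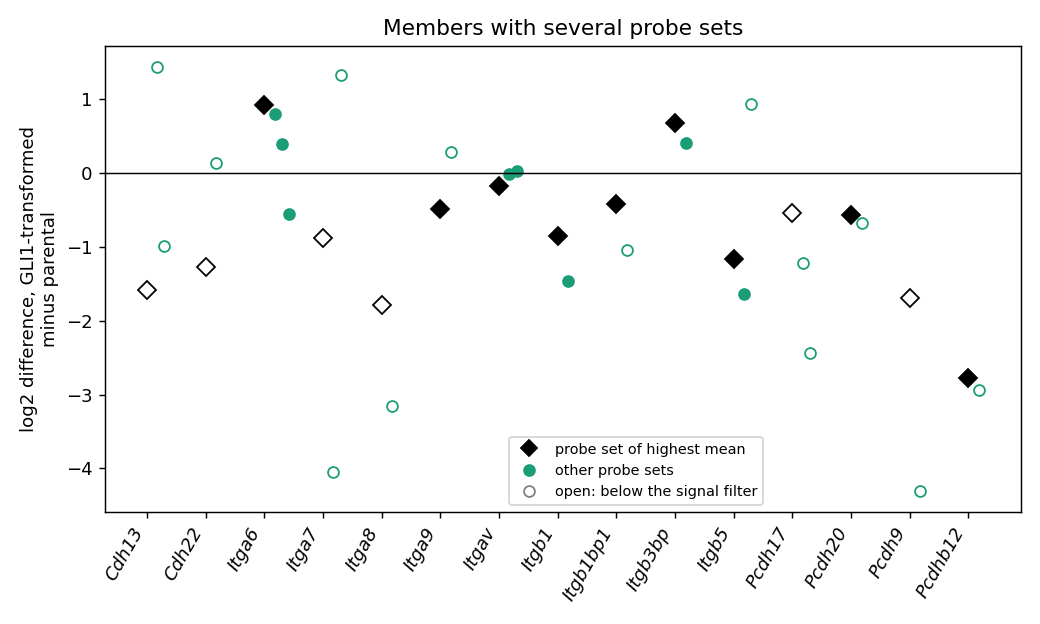
Log2 difference, GLI1-transformed minus parental, for the 15 members with several probe sets (diamonds, the probe set of highest mean; circles, the others; open symbols, mean below the filter). The 2 tested probe sets each of Itgb1 and Itgb5 lie below 0. The tested probe sets of Itga6, and the probe sets of Itga7, all below the filter, fall on both sides of 0.

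Calls were fewer with either parental array left out, among the members and over all tested probe sets. Without parental replicate 1, 4 members fell and 0 rose, where 1.51% of all tested probe sets fell and 1.22% rose. Without parental replicate 2, 5 fell and 0 rose, where 2.26% fell and 1.48% rose. In these fits the lone parental array is assumed to vary like the GLI1 arrays. Itga1, Pcdh18, Pcdhb12 and Pcdhb19 fell in both fits. With the pair of highest GAPDH ratio left out (clone II replicate 1, parental replicate 1), Itga1 and Pcdhb19 were the 2 members that fell, where 0.897% of all did. No called member changed its direction in any of these fits. With every array centred on its median, which put the median over the 18625 tested probe sets at 0.165, 9 members fell and 2 rose, Itga3 (adjusted p = 0.0584) and Pcdhb22 being lost. There 5.07% of all probe sets fell and 7.81% rose, so that more rose than fell, while more fell than rose without the centring.

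Clone II was set against the other GLI1 arrays in a model with 3 groups. By limma, 0 of the 28 tested members were called between them, where 0.129% of all probe sets were, and 6 had an unadjusted p under 0.05, where 8.65% did. Of these calls, 0 members fell, where 0.113% of all probe sets did. The smallest adjusted p was that of Itga9, with log2 signals of 8.15 and 8.27 in clone II, against 10.53 with no clone named and 9.48 in clone I (log2 -1.79, SE 0.45, adjusted p = 0.236, limma). The others were Cdh3 (-1.17), Itga1 (-0.72), Itgb5 (-0.59), Pcdh19 (0.82) and Pcdhb17 (0.58). The difference from parental cells was -3.09 in clone II and -1.93 in the other GLI1 arrays for Cdh3, -5.07 and -4.35 for Itga1, and -1.52 and -2.34 for Pcdh19. These comparisons share the parental arrays. Called against parental cells were 11 of the 28 members in clone II, where 9.73% of all probe sets were called, and 10 in the other GLI1 arrays, where 12.4% were. Fallen among them were 10 in clone II, where 5.74% of all fell, and 9 in the other GLI1 arrays, where 6.83% fell.

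**Figure D5:**
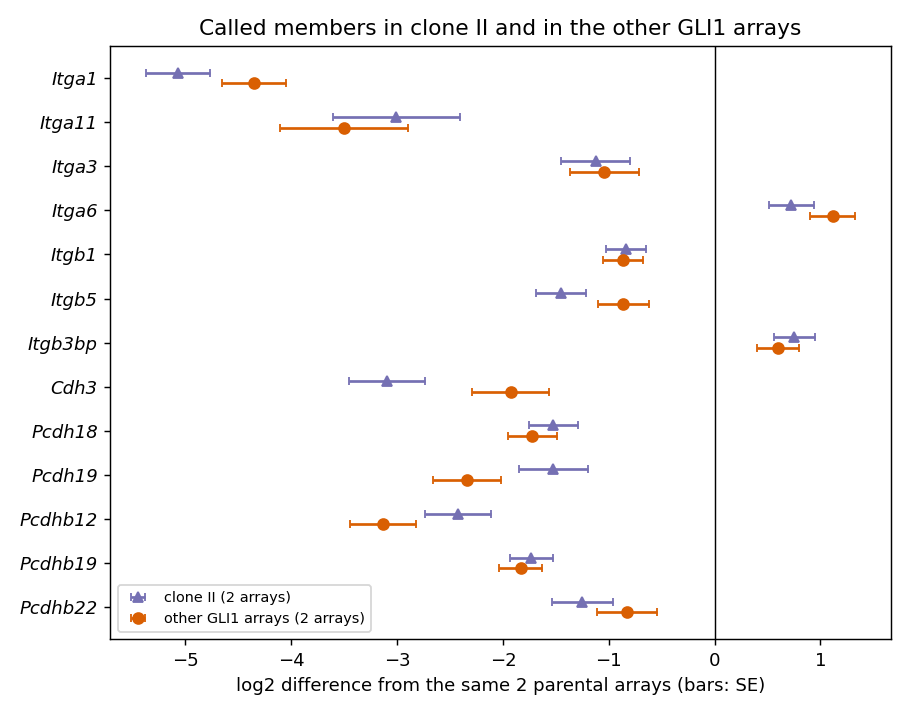
Log2 difference from the same 2 parental arrays for the 13 called members, in clone II (triangles, 2 arrays) and in the other GLI1 arrays (circles, 2 arrays), with SEs from limma. Both sets lie on 1 side of 0 for every member, and none differed between them after adjustment. The 13 were picked by their calls on the same arrays.

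Ligands and inner partners of these receptors were looked at through lists chosen with earlier results of these data known. Of 26 tested integrin ligand genes 13 fell, 2 rose and 11 did not pass. Over all tested probe sets, 7.25% fell and 5.84% rose. Among the fallen ligand genes, Fbln5 passed the filter only through the parental arrays, so it had to differ. Its mean log2 signal was 8.29 on the GLI1 arrays and 11.4 on the parental arrays. The median log2 difference was -1.23 for the list and 0.005 over all tested probe sets. Fitted with no filter, 15 of the 39 measured fell and 3 rose, where 4.15% and 3.1% of all probe sets did. Added there were periostin, Postn, with log2 signals of 2.51 to 4.37 on the GLI1 arrays, against 15.13 and 14.57 on the parental arrays (adjusted p = 4.68e-05), tenascin C, Tnc (0.00962), which fell, and Ibsp (0.047), which rose. The smallest adjusted p-values among tested genes were those of the collagen genes Col1a2 (-5.73, adjusted p = 1.36e-05) and Col3a1 (-7.03, 6.99e-05) and of osteopontin, Spp1 (5.20, 0.000181). The other gene that rose was Icam1, the ligand of leukocyte integrins (1.94, 0.00107). Of 35 tested genes of the adhesion plaque list, 11 fell, 0 rose and 24 did not pass, with a median of -0.56. The shares over all tested probe sets were again 7.25% fallen and 5.84% risen. By adjusted p, these genes of the list led. Cav1, of caveolae (-5.74, 4.37e-05), the tensin Tns1 (-2.99, 0.000831) and the filamin Flna (-2.06, 0.000992) came first. In fits without parental replicate 1 or 2 fewer genes of both lists fell, and fewer of all tested probe sets did too. Those fits rest on 1 parental array.

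For the lists that follow, the shares over all tested probe sets were again 7.25% fallen and 5.84% risen. Of 13 tested cadherin partners 3 fell, 0 rose and 10 did not pass, with a median of -0.12. Those that fell were Jup, or plakoglobin (-1.73, adjusted p = 0.00225), the catenin-like Ctnnal1 (-0.75, 0.028) and the plakophilin Pkp2 (-1.99, 0.0377). With either parental array left out, fewer partners fell, and fewer of all tested probe sets did too. Among 9 tested genes of other cadherin superfamily branches, Fat1, a giant cadherin (-1.30, adjusted p = 0.00258), and Celsr2, of planar polarity (-1.99, 0.00322), fell, 0 rose and 7 did not pass. Celsr2 lost its call without parental replicate 1 (adjusted p = 0.0541).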

How the data were processed

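Biotinylated cRNA from 6 samples was read on Affymetrix rat arrays with 1 colour. For each array the authors deposited a linear intensity per probe set. The submitters' processing notes name MAS5, with no version, and no source used here gives a genome build or how MAS5 scaled the arrays. No detection calls were used. Signals below 1 were set to 1 before log2. Of 31099 probe sets, 57 controls were left out. GLI1 arrays (4) and parental arrays (2) were compared with limma 3.58.1 (R 4.3.3; lmFit, then eBayes with intensity trend; 4 residual degrees of freedom, 3 in the model with 3 groups), two-sided, and p-values were adjusted by Benjamini and Hochberg's method over the 18625 probe sets tested. Errors beside means are SDs and those beside log2 differences SEs. The labels call the samples biological replicates without saying how cultures were kept apart, so p-values reflect no more than the spread among these arrays, which may be technical, and 2 of them are of 1 clone. Their number limits the precision.

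Every member was placed by role, and each called member is given on all arrays, as are Itgb1, Itgav, Itgb3, Itgb4, Itga5 and Cdh13 by the naming rule; Pcdh1, also in it, was not analysed here. Itga7, Itgax, Pcdhb6, Pcdhb9, Cdh10, the second probe set of Pcdh9 and Itga9 were given in full after their values were seen, as was the word shared by the promoters. From other lists, the called genes of lowest adjusted p, at most 3 a list, were named, and Icam1, Postn, Tnc, Ibsp and the marker Cd14 were added after their values were seen. Members, lists and the rule were chosen with earlier results of these data known. Gene symbols came from the platform annotation: 20826 probe sets had 1 symbol, 436 several and 9780 none. Symbols were checked by gene identifier against RefSeq names (GRCr8), with 0 of the 76 member probe sets changed and 2 without a match. The fit was tested on simulated data. Alternatives covered scaling, added signal, filter, variance trend, fold minimum, probe set choice, clone averaging, replicate block and left-out arrays.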

Additional observations from a re-analysis of the deposited data

Results flagged for a closer look

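Among the 54 members, 5 had 1 GLI1 array far from the other 3 on the log2 scale, and chance flags about 1 in 20 such groups. Pcdh18 stood at 11.27 on clone II replicate 2, against 10.88 to 10.89 on the other GLI1 arrays, which lie very close together. Itga2b stood at 9.41 on the array with no clone named, against 8.73 to 8.79 on the others. Pcdh17 stood at 6.48 on the array with no clone named, Itgad at 8.31 on clone I and Cdh22 at 7.13 on clone II replicate 2. All of these except Pcdh18 are below the filter.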

How the results depend on the processing

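The 11 fallen and 2 risen members were recounted under 18 other settings. With quantile normalisation, 32 added to each signal, the 3-group model or the replicate block, both counts were the same and held the same genes. Of all tested probe sets, 7.07%, 7.41% and 7.72% fell with quantile normalisation, 32 added and the block. In the same order, 6.76%, 5.89% and 6.39% rose. The fallen members were 10 with no intensity trend (5.85% of all probe sets), with clone II averaged (7.18%) and with a 2-fold minimum (5.76%), 11 with the mean of all probe sets of a gene (7.25%), and 9 of 15 with the filter at the 60th percentile (8.75%). Of the risen members, 0 remained with no intensity trend (3.79% of all probe sets rose) or with the mean of all probe sets (5.83%). With a 2-fold minimum 0 remained (3.31%), and with clone II averaged 1 did (5.54%). Calls were lost under 10 settings for Itgb3bp, 9 for Pcdhb22, 7 for Itga6 and 6 for Itga3. With 1 array left out, 4 to 11 members fell and 0 to 2 rose, where 1.51% to 8.88% and 1.22% to 7.39% of all probe sets did. Without the 2 arrays of highest GAPDH ratio, 2 fell and 0 rose. The cause was not tested, except that the last fits rest on fewer arrays. For clone II set against the remaining GLI1 arrays, 0 members were called in every fit run; none was run with clone II averaged or without the 2 arrays of highest GAPDH ratio.

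The labels give the arrays of several groups the numbers 1 and 2, without saying that a number marks a shared day or batch. Deviations of same-numbered clone II and parental arrays correlated at 0.321 over probe sets, and those of the other GLI1 arrays at 0.068 with parental and 0.104 with clone II. The replicate block left 11 fallen and 2 risen members.

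Some differences that had not passed changed sign with 1 array left out. Itgav ranged from -0.311 to 0.058, Itgb7 from -0.518 to 0.092, Itgal from -0.318 to 1.108 and Itga5 from -1.043 to 0.237. Without the 2 arrays of highest GAPDH ratio Itgal gave -0.334 and Cdh15 -0.042. With no detection calls, the 26 members below the filter cannot be called absent.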
